A study of Mus musculus with 16 samples.

Results

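The 9 adipokine genes *Adipoq*, *Lep*, *Retn*, *Cfd*, *Rbp4*, *Nampt*, *Itln1*, *Nrg4* and *Metrnl* were followed in epididymal white adipose tissue (eWAT) of diabetic mice made to overexpress leucine-rich alpha-2-glycoprotein 1 (LRG1). They were chosen by symbol, matched from the Ensembl gene identifiers of the deposited count table, and are 9 of its 55573 genes. RNA-seq gave 1 library per sample and 16 libraries in all, 4 in each of 4 groups. The groups were eGFP and LRG1 at 7 weeks of age, and eGFP and LRG1 at 10 weeks of age. Every group shared the C57BLKS/J background and the homozygous *db* mutation of the leptin receptor gene *Lepr*, so no group could sense leptin normally. Males on standard chow received an adeno-associated virus of serotype 8 at 4 weeks of age, which carried either enhanced green fluorescent protein or FLAG-tagged murine LRG1 behind a promoter that is not restricted to fat cells. There was no group without virus and none with an intact *Lepr*. Each cage was assigned to a single treatment, so cage and treatment cannot be told apart. The labels number the libraries of a group from 1 to 4 without naming an animal, and p-values measure the spread between these libraries.

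Adipokines are proteins that adipose tissue secretes and that act on other organs or on neighbouring cells. Mature adipocytes make leptin, which reports fat mass to the brain, and adiponectin, which raises insulin sensitivity of liver and muscle. Obesity typically raises leptin and lowers adiponectin. Other secreted proteins of fat come partly or mostly from its macrophages and other stromal cells, so their mRNA in whole tissue depends on the mixture of cells.

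Library totals ranged from 45376227 to 67539937 counts, with a median of 59851918. *Lrg1* itself served as the check of the labels and measured 86.2 to 110.2 CPM (counts scaled to library size by TMM) in the eGFP libraries of week 7 and 99.6 to 115 CPM in those of week 10, against 288 to 478 and 286 to 624 CPM in the LRG1 libraries. Reads of the transgene and of the endogenous gene cannot be told apart in these counts. The eGFP group of week 10 was split. Its replicates 1 and 3 held 24037 and 29493 CPM summed over a list of 24 mature adipocyte genes, whereas replicates 2 and 4 held 42806 and 39639 CPM. None of the 24 genes was at 0 in every library, and 8 genes of the neighbouring epididymis summed to at most 1.6 CPM. Summed over 18 macrophage genes, replicates 1 and 3 held 7533 and 7895 CPM and replicates 2 and 4 held 3264 and 4468 CPM. Comparisons of LRG1 with eGFP at week 10 are given below with and without replicates 1 and 3, an alternative added after the values had been seen. It leaves 2 eGFP libraries chosen by a level that many members follow, and over all genes it took the genes higher and lower at week 10 from 762 and 1092 to 87 and 74. Mitochondrial genes held 26.7% to 28.7% of counts with eGFP and 30.7% to 34.2% with LRG1 at week 7, and 26.7% to 30.2% against 27.6% to 31.4% at week 10. Most of this came from the rRNA genes *mt-Rnr1* and *mt-Rnr2*, which held 24.1% to 25.8% with eGFP and 27.1% to 30.4% with LRG1 at week 7. Without the mitochondrial genes every member kept its direction and its side of the threshold in all comparisons.

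Corrected for transcript length, the members spanned a wide range of levels. In the eGFP group of week 7, *Lep* stood highest at 824 ± 104 CPM per kb of exon (SD, n = 4 here and below) and *Adipoq* followed at 519.8 ± 62.2 CPM per kb. *Cfd* (141 ± 24.4) and *Retn* (96.6 ± 23.5 CPM per kb) came next, and their libraries overlapped. *Nampt* (40.9 ± 4.71) and *Metrnl* (32.0 ± 4.37 CPM per kb) also overlapped, while *Rbp4* at 10.9 ± 0.120 and *Nrg4* at 2.43 ± 0.485 CPM per kb were each apart from their neighbours in the order. The LRG1 group of week 7 had the same order with 1 exception, since *Rbp4* at 22.3 ± 4.75 CPM per kb stood above *Metrnl* at 13.1 ± 1.62 CPM per kb. *Itln1*, which encodes omentin, a lectin made in the mouse mainly by the intestine, had 0 counts in all 16 libraries. A count of 0 allows up to 3 counts, or 0.0444 to 0.0661 CPM depending on the library, which covers counting error only. Among 10 intestinal epithelial genes, *Cdx1*, *Cdx2* and *Defa24* were at 0 in every library as well, but the others were not. The 10 genes summed to 7.40 to 26.4 CPM per library, and *Lyz1* had group means of 8.36 to 20.6 CPM.

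**Figure D1:**
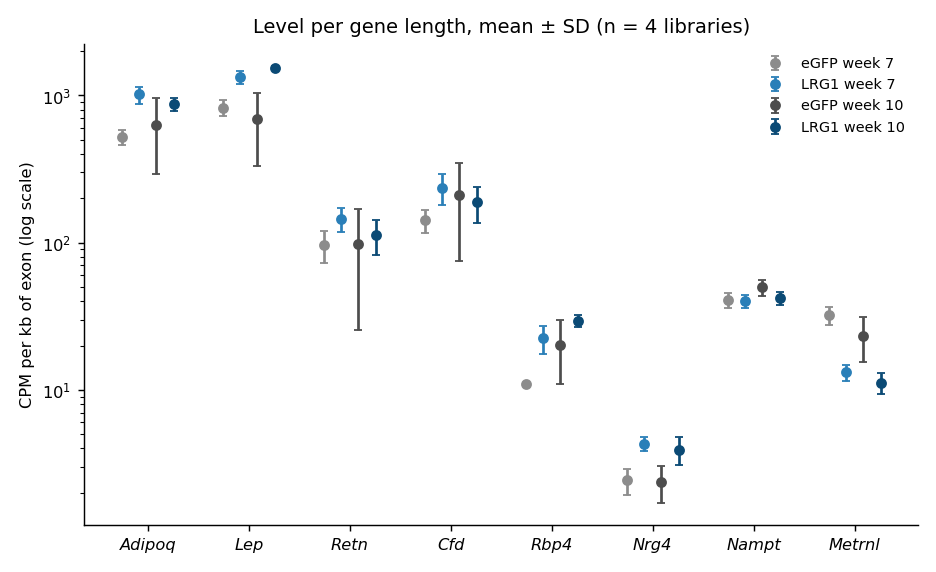
Level of each detected adipokine gene as CPM per kb of exon on a log axis, with points for group means and bars for the SD over 4 libraries. *Lep* and *Adipoq* lie highest and *Nrg4* lowest in all groups, and *Rbp4* and *Metrnl* change places between the eGFP and LRG1 groups of week 7.

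*Lep* encodes leptin, the hormone whose receptor is mutated in these mice, and *Adipoq* encodes adiponectin. The 250 bases before their RefSeq starts (GRCm38.p6) are shown together with those of *Retn*, another adipocyte hormone gene. Across the libraries these 3 genes correlated at a Pearson r of 0.742 to 0.880 (log2 CPM). Other members did so as well, such as *Retn* with *Cfd* (0.828) and *Lep* with *Nrg4* (0.859). Both strands were searched for TTGCGCAA, a palindromic binding sequence of C/EBP factors, for its looser form TTGCNNAA that includes it, for the CCAAT box, for TATAAA and for the nuclear receptor half-site AGGTCA. Capitals mark TTGCGCAA in *Lep* and CCAAT or its reverse complement in *Adipoq*, and *Retn* held none of the 5 motifs.
Lep, chr6:29059971-29060220, plus strand: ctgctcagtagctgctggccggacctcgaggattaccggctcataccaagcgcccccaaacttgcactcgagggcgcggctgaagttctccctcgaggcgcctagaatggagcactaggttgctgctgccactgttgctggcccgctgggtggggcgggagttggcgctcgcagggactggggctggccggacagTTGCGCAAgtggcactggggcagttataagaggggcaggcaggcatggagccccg
Adipoq, chr16:23146286-23146535, plus strand: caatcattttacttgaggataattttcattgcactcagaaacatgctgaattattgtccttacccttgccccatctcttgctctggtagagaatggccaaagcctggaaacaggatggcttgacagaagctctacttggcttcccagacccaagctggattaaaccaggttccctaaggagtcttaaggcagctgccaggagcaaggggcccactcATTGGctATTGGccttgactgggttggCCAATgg
Retn, chr8:3655520-3655769, plus strand: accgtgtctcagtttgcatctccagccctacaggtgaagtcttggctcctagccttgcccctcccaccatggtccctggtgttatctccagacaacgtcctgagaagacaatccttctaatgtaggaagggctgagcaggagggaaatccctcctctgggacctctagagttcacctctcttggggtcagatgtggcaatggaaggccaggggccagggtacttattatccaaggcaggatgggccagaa
Of 32851 promoters searched over the same length, 0.164% held TTGCGCAA and *Lep* was the only one of the 9 members that did. CCAAT occurred in 33.8% of all promoters and in those of *Adipoq* and *Rbp4*. TTGCNNAA occurred in 9.56% (*Lep* and *Rbp4* among the members), TATAAA in 12.4% (*Rbp4*) and AGGTCA in 14% (*Nampt* and *Nrg4*). *Rbp4* had more than 1 promoter entry and so more chances of a match, and its CCAAT lay in a different entry from its TATAAA and TTGCNNAA. The entries of *Nrg4* (55283576 to 55283875), *Nampt* (32820085 to 32820384) and *Metrnl* (121702177 to 121702476) lie inside the genes of the count table rather than at their starts. So does the *Rbp4* entry that holds TATAAA and TTGCNNAA. A match describes these letters only.

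*Lep* (chromosome 6, 29060220 to 29073877, plus strand, GRCm38) measured 2320, 2670, 3108 and 2960 CPM in eGFP replicates 1 to 4 of week 7, and 4137, 4044, 4724 and 4923 CPM in the LRG1 replicates. Every LRG1 library was above every eGFP library, a log2 fold change of 0.69 (SE 0.26) that did not pass the threshold of an adjusted p below 0.01 (adjusted p = 0.0547). At week 10 the eGFP libraries read 1348, 3068, 1239 and 3595 CPM and the LRG1 libraries 5296, 4912, 5102 and 5287 CPM. The groups were again fully separate, and the spread was unequal: the LRG1 libraries had a coefficient of variation of 3.53% and the eGFP libraries one of 51.7%. *Lep* was called higher with LRG1 at week 10 by 1.15 on the log2 scale (SE 0.26, adjusted p = 0.00684). The fit shares its estimate of the spread over all 16 libraries, so this SE does not follow the unequal spread of week 10. The call held without eGFP replicate 2 or 4 and was lost without any other of the 8 libraries (adjusted p 0.0123 to 0.0220). Without eGFP replicates 1 and 3 together the difference was 0.63 (SE 0.12, adjusted p = 0.00996).

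*Adipoq* (chromosome 16, 23146536 to 23158028, plus strand) read 748, 603, 713 and 807 CPM in the eGFP libraries of week 7 against 1144, 1394, 1536 and 1539 CPM with LRG1. The groups did not overlap and differed by 0.97 on the log2 scale (SE 0.28, adjusted p = 0.0146), short of the threshold. At week 10 the eGFP libraries spread from 409 CPM in replicate 1 and 546 CPM in replicate 3 to 1144 CPM in replicate 4 and 1379 CPM in replicate 2. The LRG1 libraries of that week, 1226, 1256, 1327 and 1037 CPM, lay within this spread, and the difference of 0.48 (SE 0.28, adjusted p = 0.223) did not pass. It was -0.058 (SE 0.14, adjusted p = 0.872) without eGFP replicates 1 and 3.

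*Retn* and *Cfd* are further products of the mouse adipocyte. *Retn* (chromosome 8, 3655770 to 3660110, plus strand) encodes resistin, which impairs insulin action in mice, and *Cfd* (chromosome 10, 79890853 to 79892655, plus strand) encodes adipsin, the protease that cleaves factor B in the alternative complement pathway. At week 7 *Retn* ranged from 113 to 199.9 CPM with eGFP and from 177 to 269.6 CPM with LRG1, which overlap, and *Cfd* from 99.9 to 148 and from 174 to 291 CPM, which do not. Neither passed the test, with log2 fold changes of 0.59 (SE 0.42, adjusted p = 0.302) for *Retn* and 0.74 (SE 0.34, adjusted p = 0.104) for *Cfd*. At week 10 the eGFP libraries 1 to 4 read 47.5, 270.3, 65.2 and 233 CPM for *Retn* and 83.1, 370.1, 129 and 196 CPM for *Cfd*. Replicates 1 and 3 were the lowest pair for both genes, and the highest library exceeded the lowest 5.69-fold for *Retn* and 4.45-fold for *Cfd*. The LRG1 libraries ranged from 126 to 242 CPM and from 129 to 239.7 CPM. Differences with LRG1 at week 10 were 0.20 (SE 0.42, adjusted p = 0.762) for *Retn* and -0.17 (SE 0.34, adjusted p = 0.755) for *Cfd*. Without eGFP replicates 1 and 3 they were -0.50 (adjusted p = 0.245) and -0.71 (adjusted p = 0.137).

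**Figure D2:**
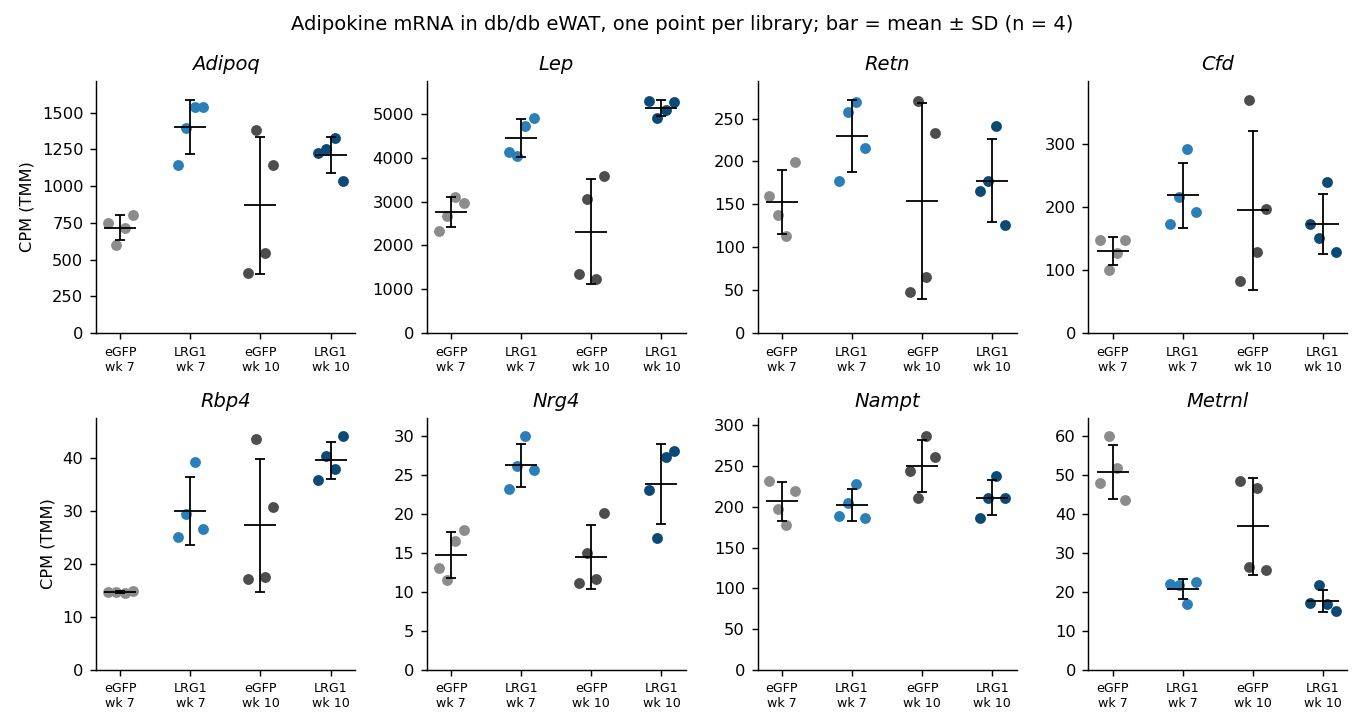
CPM of 8 adipokine genes in each library (points), with the mean and SD of each group of 4 libraries (bars). Both LRG1 groups lie wholly above the eGFP group of the same week for *Lep* and wholly below it for *Metrnl*. The eGFP libraries of week 10 fall into a low and a high pair for *Adipoq*, *Lep*, *Retn* and *Rbp4*. They do so for *Metrnl* too, with the pairs reversed.

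*Rbp4* (chromosome 19, 38116629 to 38125281, minus strand) encodes the carrier of retinol in blood. Its eGFP libraries of week 7 were nearly equal at 14.6, 14.7, 14.6 and 14.9 CPM, and the LRG1 libraries read 25.0, 29.3, 39.2 and 26.5 CPM. *Rbp4* was higher with LRG1 by 1.03 on the log2 scale (SE 0.23, adjusted p = 0.00362). The call held without LRG1 replicate 1, 2 or 4 and was lost without LRG1 replicate 3 or any eGFP library (adjusted p 0.0103 to 0.0163). At week 10 the eGFP libraries read 17.1, 43.5, 17.5 and 30.8 CPM and the LRG1 libraries 35.9, 40.3, 37.9 and 44.0 CPM. These overlapped, and the difference of 0.54 (SE 0.23, adjusted p = 0.102) did not pass. With 1 library left out it ran from 0.37 to 0.86 (adjusted p 0.00283 to 0.283) and passed only without eGFP replicate 2. It was 0.089 without eGFP replicates 1 and 3 (SE 0.16, adjusted p = 0.817).

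*Nrg4* (chromosome 9, 55220222 to 55326844, minus strand) encodes neuregulin 4, an epidermal growth factor family ligand of the receptor ErbB4. It read 13.1, 11.6, 16.5 and 17.9 CPM in the eGFP libraries of week 7 and 23.2, 26.1, 29.9 and 25.6 CPM with LRG1, with no overlap. *Nrg4* was higher by 0.83 (SE 0.19, adjusted p = 0.00438). The call held without LRG1 replicate 1 or eGFP replicate 3 or 4 and was lost without any other of the 8 libraries (adjusted p 0.0102 to 0.0183). At week 10 it read 11.2, 14.97, 11.6 and 20.1 CPM with eGFP and 23.01, 16.9, 27.2 and 28.0 CPM with LRG1. LRG1 replicate 2 fell below eGFP replicate 4, and the difference of 0.72 (SE 0.19, adjusted p = 0.0159) did not pass. It passed without LRG1 replicate 2 (0.85, adjusted p = 0.00785) or eGFP replicate 4 (0.92, adjusted p = 0.00255), and not without any other single library (adjusted p up to 0.0600). Its value without eGFP replicates 1 and 3 was 0.44 (SE 0.20, adjusted p = 0.243). Of its 6075 exon bases, 368 overlap *Fbxo22* and 177 overlap *Gm15625* on the opposite strand, and the sources do not state whether counting used the strand, so a part of its counts is uncertain.

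*Nampt* (chromosome 12, 32819545 to 32853349, plus strand) encodes the rate-limiting enzyme of NAD salvage, which is also found outside cells as visfatin. Its group means lay between 202 and 251 CPM. Libraries ranged from 178 to 232 CPM with eGFP and from 186 to 229 CPM with LRG1 at week 7, and from 210.2 to 286 against 186 to 238 CPM at week 10. Both comparisons overlapped, with log2 fold changes of -0.032 (SE 0.11, adjusted p = 0.852) and -0.25 (SE 0.11, adjusted p = 0.118). The second was -0.16 without eGFP replicates 1 and 3 (SE 0.12, adjusted p = 0.539).

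*Metrnl* (chromosome 11, 121701544 to 121716306, plus strand) encodes meteorin-like, a secreted protein of adipose tissue and muscle that is also made by activated macrophages. It was lower with LRG1 in both weeks. The eGFP libraries of week 7 read 47.9, 59.9, 51.8 and 43.7 CPM and the LRG1 libraries 21.9, 21.9, 17.01 and 22.5 CPM. At week 10 the values were 48.4, 26.5, 46.8 and 25.6 CPM with eGFP and 17.02, 21.8, 16.9 and 15.2 CPM with LRG1. No LRG1 library reached the lowest eGFP library of its week, yet eGFP replicates 2 and 4 of week 10 stood close to the LRG1 range. The log2 fold change was -1.29 (SE 0.19, adjusted p = 0.000195) at week 7, which held without any 1 library, and -1.05 (SE 0.19, adjusted p = 0.00265) at week 10. The second call held without eGFP replicate 2 or 4 or LRG1 replicate 1 or 2 and was lost without any other single library (adjusted p 0.0101 to 0.0133). Without eGFP replicates 1 and 3 the difference at week 10 was -0.56 (SE 0.14, adjusted p = 0.0377).

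Leukocyte genes moved in the same direction as *Metrnl*. Of 18 macrophage genes 17 fell at week 7 and 15 at week 10, with median log2 fold changes of -1.34 and -1.11, and their summed level went from 5112 to 6482 CPM with eGFP to 2222 to 2524 CPM with LRG1 at week 7. At week 10 it was 3264 to 7895 CPM with eGFP and 2073 to 2803 CPM with LRG1. Of 19 pan-leukocyte genes 18 fell at week 7 and 17 at week 10. Over all genes 10.7% were called lower at week 7 and 5.24% at week 10. At week 10, 6 macrophage genes and 1 pan-leukocyte gene fell without eGFP replicates 1 and 3, with medians of -0.78 and -0.61. In that fit 0.736% of all genes were called. No gene of either list was at 0 in every library. The part of these cells in the *Metrnl* values was not tested, and in whole tissue fewer cells of a type and less RNA per cell cannot be told apart.

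With LRG1 at week 7, *Rbp4* and *Nrg4* were higher and *Metrnl* was lower, 3 of the 8 genes tested. Among all 20822 genes tested 18% were called, 7.37% as higher and 10.7% as lower. The median log2 fold change of the 8 was 0.72, against 0.0059 over all genes. Libraries of 6 members did not overlap between the treatments (*Adipoq*, *Lep*, *Cfd*, *Rbp4*, *Nrg4* and *Metrnl*), which held for 38% of all genes. Fitted on the 8 libraries of week 7 alone, with no week 10 library in the estimate of the spread, all of these 6 passed, as did 29% of all genes in that fit. There *Adipoq* differed by 0.95 (SE 0.11, adjusted p = 2.88e-05), *Lep* by 0.67 (SE 0.10, adjusted p = 0.000225) and *Cfd* by 0.72 (SE 0.16, adjusted p = 0.00261). *Retn* did not pass (0.57, adjusted p = 0.0146), nor did *Nampt* (adjusted p = 0.692).

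With LRG1 at week 10, *Lep* was higher and *Metrnl* lower, 2 of 8 members against 8.9% of all genes (3.66% higher, 5.24% lower). The median over the members was 0.34, against -0.0047 over all genes. The call of *Lep* alone was left without eGFP replicates 1 and 3, where 0.736% of all genes were called. *Lep* and *Metrnl* were also the 2 members without overlap between treatments, as were 20.1% of all genes. Fitted on the 8 libraries of week 10 alone, none of the members passed, where 0.0627% of all genes did. There *Lep* differed by 1.16 (SE 0.34, adjusted p = 0.0670) and *Metrnl* by -1.04 (SE 0.23, adjusted p = 0.0392). *Lep*, *Metrnl* and *Nrg4* had an unadjusted p under 0.05 in that fit.

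**Figure D3:**
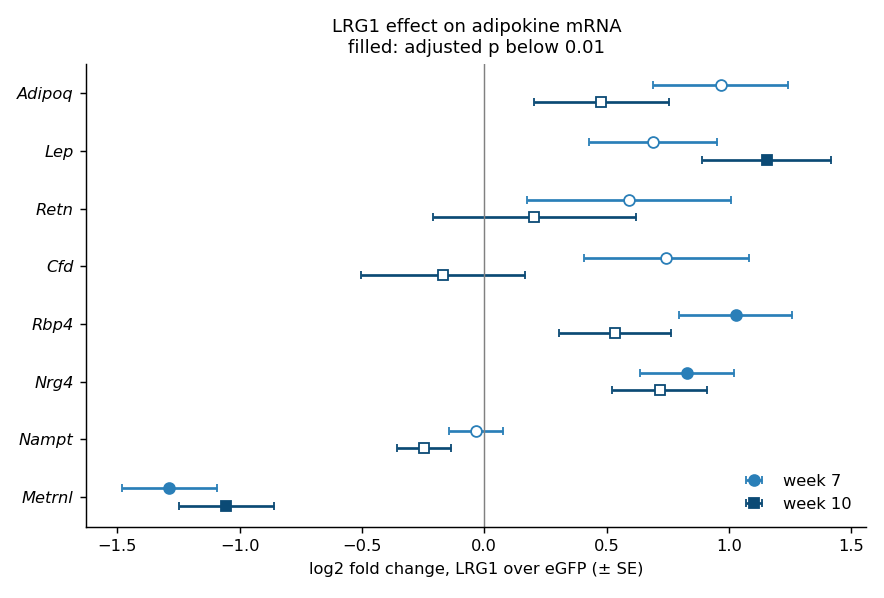
Log2 fold change of LRG1 over eGFP with its SE from edgeR for each member at week 7 (circles) and week 10 (squares), filled where the adjusted p is below 0.01. Filled points are *Rbp4*, *Nrg4* and *Metrnl* at week 7 and *Lep* and *Metrnl* at week 10.

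Whether the effect of LRG1 differed between the weeks was tested directly. None of the 8 members passed by edgeR or by DESeq2, as 0.327% of all genes did by edgeR, and none had an unadjusted p under 0.05 by edgeR. The largest difference was that of *Cfd*, whose effect was lower at week 10 by 0.91 on the log2 scale (SE 0.48, adjusted p = 0.605).

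Genes of the mature adipocyte list moved in the same direction as the hormone genes. Of its 24 genes 9 rose at week 7 and none fell, with a median log2 fold change of 0.58, among them *Pnpla3*, a lipid droplet protein (1.14, SE 0.18, adjusted p = 0.000268), *Acvr1c*, an activin receptor of fat cells (1.07, SE 0.19), *Slc2a4*, the insulin-responsive glucose transporter (1.17, SE 0.21), and *Thrsp*, a lipogenic protein (1.27, SE 0.25). Summed, the list held 27361 to 28358 CPM with eGFP and 34912 to 46107 CPM with LRG1 at week 7, and 24037 to 42806 against 38319 to 44077 CPM at week 10, when 2 genes, *Pnpla3* and *Dgat2*, rose, and 1 did without eGFP replicates 1 and 3. Over all genes 7.37% were called higher at week 7 and 3.66% at week 10. Without that pair 0.736% of all genes were called at week 10, in either direction. To set the members against the 24 adipocyte genes, the list was also used as a scale, by dividing each library by the geometric mean of these genes. On this scale the median of all genes shifted to -0.62 at week 7 and -0.55 at week 10, and the genes called higher and lower went from 1534 and 2221 to 50 and 5211 at week 7 and from 762 and 1092 to 104 and 2834 at week 10. Scaling by library totals alone gave 341 and 3636 at week 7, with a median of -0.15, and 320 and 1136 at week 10.

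The ratio of *Lep* to their geometric mean was 6.56 ± 0.743 with eGFP and 6.82 ± 0.530 with LRG1 at week 7 (log2 difference 0.056, SE 0.16, adjusted p = 0.790), and 4.92 ± 1.22 against 8.45 ± 0.669 at week 10 (0.78, SE 0.16, adjusted p = 0.00369). All 4 LRG1 ratios of week 10, from 7.76 to 9.08, were above the highest eGFP ratio of 6.43. The difference in effect between the weeks on this scale did not pass (0.72, SE 0.23, adjusted p = 0.389). Without eGFP replicates 1 and 3, which had ratios of 4.53 and 3.52, the week 10 difference was 0.54 (SE 0.13, adjusted p = 0.0381) and did not pass. The ratio of *Adipoq* was 1.70 ± 0.152 and 2.14 ± 0.162 at week 7 (0.33, SE 0.16, adjusted p = 0.0963) and 1.83 ± 0.443 and 1.98 ± 0.135 at week 10 (0.12, SE 0.16, adjusted p = 0.571). *Rbp4* (0.38, adjusted p = 0.050) and *Nrg4* (0.20, adjusted p = 0.373) no longer passed at week 7. *Retn* turned to -0.045 and -0.082 in the respective weeks, neither past the threshold.

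*Nampt* and *Metrnl* were lower on the adipocyte scale. *Nampt* was 0.490 ± 0.0549 with eGFP and 0.309 ± 0.0221 with LRG1 at week 7 (-0.67, SE 0.21, adjusted p = 0.0167), and 0.614 ± 0.238 against 0.345 ± 0.0220 at week 10 (-0.83, SE 0.21, adjusted p = 0.00861). *Metrnl* differed by -1.91 (SE 0.34, adjusted p = 0.000496) and by -1.73 (SE 0.33, adjusted p = 0.00265). Since the median of all genes stood at -0.62 and -0.55 on this scale and nearly all calls were lower, the *Nampt* value of week 10 past the threshold does not set it apart from other genes. The week 10 differences without eGFP replicates 1 and 3 were -0.25 (SE 0.12, adjusted p = 0.334) for *Nampt* and -0.65 (SE 0.18, adjusted p = 0.0768) for *Metrnl*.

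**Figure D4:**
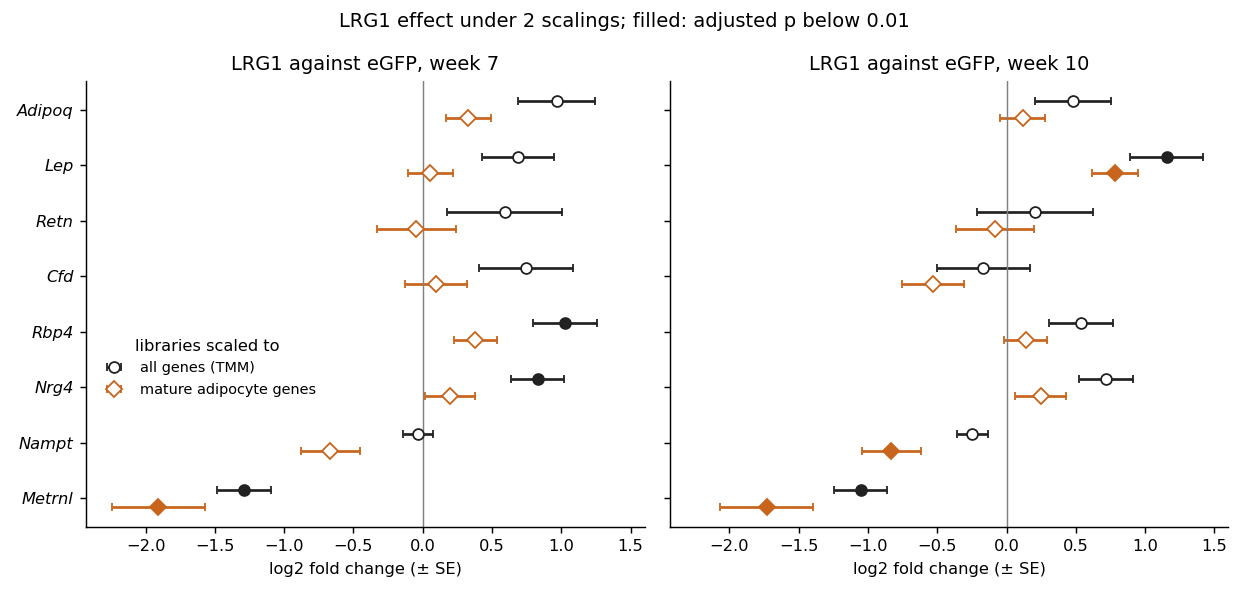
Log2 fold change of LRG1 over eGFP with its SE when libraries were scaled over all genes (black circles) or to mature adipocyte genes (orange diamonds), at week 7 (left) and week 10 (right), filled where the adjusted p is below 0.01. On the adipocyte scale *Lep* is filled at week 10 only, *Metrnl* in both weeks and *Nampt* at week 10, where the median of all genes is -0.55.

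Between week 7 and week 10 no member passed in the eGFP group, where 2.14% of all genes did. By edgeR *Rbp4*, *Nampt* and *Metrnl* had an unadjusted p under 0.05, and DESeq2 called *Rbp4* alone. *Rbp4* was the only member without overlap between the weeks (11% of all genes), at 14.7 ± 0.161 and 27.2 ± 12.6 CPM, a difference of 0.89 (SE 0.23, adjusted p = 0.0329). It passed without eGFP replicate 1 of week 10 (1.06, adjusted p = 0.00906). The libraries of week 10 were not alike, however. Against the week 7 mean, replicates 2 and 4 were higher in *Adipoq*, *Lep*, *Retn*, *Cfd*, *Rbp4*, *Nampt* and *Nrg4* and lower in *Metrnl*. For *Nampt* and *Nrg4* the rise in replicate 2 was small. Replicates 1 and 3 were lower in *Adipoq*, *Lep*, *Retn*, *Cfd* and *Nrg4*, though only just in *Cfd* of replicate 3. They were higher in *Rbp4* and *Nampt*, with *Metrnl* near its week 7 level. The low pair also had 220.5 and 418.9 CPM summed over 10 neutrophil genes, against 26.7 and 122 CPM in replicates 2 and 4 and 26.9 to 46.7 CPM in the eGFP libraries of week 7. The part of these cells in the split was not tested.

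**Figure D5:**
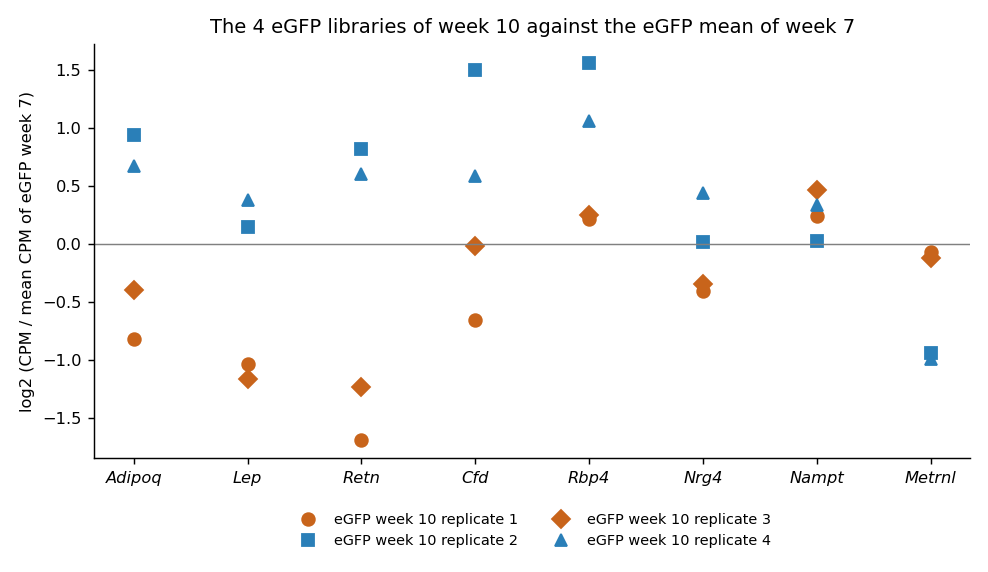
The 4 eGFP libraries of week 10, each as log2 of its CPM over the mean CPM of the eGFP group of week 7, by gene. Replicates 1 and 3 (orange) lie below replicates 2 and 4 (blue) for *Adipoq*, *Lep*, *Retn*, *Cfd*, *Rbp4* and *Nrg4* and above them for *Metrnl*.

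Between the weeks of the LRG1 group, none of the 8 members passed by edgeR or by DESeq2, none had an unadjusted p under 0.05 by edgeR, and all 8 overlapped between weeks, where 0.00961% of all genes were called and 7.05% did not overlap. Differences ran from -0.37 for *Retn* (SE 0.42, adjusted p = 0.893) to 0.40 for *Rbp4* (SE 0.23, adjusted p = 0.706).

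Of 11 genes for receptors of these proteins, 10 were tested. At week 7, 2 passed, near the 18% of all genes: *C3ar1*, which binds the complement fragment released downstream of adipsin (-1.19, SE 0.29, adjusted p = 0.00588), and *Cap1*, reported to bind resistin (-0.64, SE 0.17, adjusted p = 0.00936), fell. At week 10 *C3ar1*, *Kit*, *Cap1* and *Tlr4* fell, against 8.9% of all genes called. None did without eGFP replicates 1 and 3, where 0.736% of all genes were called. The adiponectin receptors *Adipor1* (121 and 135 CPM with eGFP and LRG1 at week 7) and *Adipor2* (397 and 473 CPM) did not pass, nor did *Cdh13*, which encodes the adiponectin-binding T-cadherin (27.5 and 51.5 CPM, adjusted p = 0.0146). The mutated *Lepr* was low, at means of 0.719 and 1.61 CPM at week 7 (adjusted p = 0.0250). The receptor list had a median log2 fold change of 0.077 at week 7 and 0.041 at week 10.

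Among 18 genes that control adiponectin transcription or assembly, 4 rose and 1 fell at week 7, where 18% of all genes were called. Those that rose were *Rxra*, the partner of PPARG (0.42, SE 0.09, adjusted p = 0.00196), *Gstk1*, a factor of adiponectin multimer assembly (0.85, SE 0.18), *Foxo1* (0.82, SE 0.19) and *Klf15* (1.16, SE 0.30), and *Stat5b* fell by 0.34 on the log2 scale (SE 0.08). At week 10 *Pparg*, the master regulator of the fat cell (0.52, SE 0.12, adjusted p = 0.00659), and *Gstk1* (0.74, SE 0.18) rose and none fell, near the 8.9% of all genes. None passed without eGFP replicates 1 and 3, where 0.736% of all genes were called. The list's median was 0.19 at week 7 and 0.11 at week 10.

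Of 12 genes of the alternative complement pathway, in which adipsin acts, 2 rose and 4 fell at week 7. At week 10, 4 fell, and none did without eGFP replicates 1 and 3. For this list and the NAD and retinol lists below, the share called over all genes was 18% at week 7 and 8.9% at week 10. Without eGFP replicates 1 and 3 it was 0.736% at week 10. The receptors *C3ar1*, *C5ar1* (-1.25, SE 0.26) and *C5ar2* (-1.44, SE 0.29) and properdin, *Cfp* (-0.74, SE 0.15), fell in both weeks, and the inhibitor *Cd55* rose at week 7 (0.63, SE 0.10, adjusted p = 0.000245). The list's median was 0.066 at week 7 and -0.15 at week 10. In the NAD group around *Nampt*, 18 genes were tested. *Bst1*, an NAD-consuming ectoenzyme of leukocytes and stroma, fell at week 7 (-2.57, SE 0.46, adjusted p = 0.000787) and at week 10 (-2.63, SE 0.46, adjusted p = 0.00220), while *Nnmt*, which methylates nicotinamide, rose at week 10 (0.64, SE 0.10, adjusted p = 0.00139) and *Qprt* fell (-1.17, SE 0.28). The other 17 genes at week 7 and 15 at week 10 did not pass, and without eGFP replicates 1 and 3 there was 1 call at week 10, a higher one. Around *Rbp4*, 14 retinol-handling genes were tested and 1, *Stra6l*, a receptor of retinol-binding protein, fell in both weeks (-1.30, SE 0.34, and -1.78, SE 0.35), with none called at week 10 without eGFP replicates 1 and 3.

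Likeness to a member was measured as the Pearson correlation of log2 CPM over the 16 libraries, among 12610 genes. The libraries carry the treatment and the split of the eGFP group, which all genes share, so these values only describe profiles. *Sgce* was most like *Adipoq* (r = 0.986), *Aifm2* most like *Lep* (r = 0.982), *Cyp27a1* most like *Retn* (r = 0.955) and *Ndrg2* most like *Rbp4* (r = 0.967). *Zfp277* led for *Cfd* (r = 0.910), *Aldh5a1* for *Nrg4* (r = 0.968) and *Ighv1-26* for *Nampt* (r = 0.882). For *Metrnl* the leading gene was *Cotl1*, an actin-binding protein (r = 0.990), followed by *Plekho1* and *Cyth4* (r = 0.989 each). Among the members themselves, *Adipoq* went with *Retn* (r = 0.880, and 0.955 with group means removed), *Cfd* (0.837 and 0.903) and *Lep* (0.864 and 0.866), and against *Metrnl* (-0.840 and -0.807). For *Nampt*, r ran from -0.546 with *Lep* to 0.160 with *Metrnl*.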

How the data were processed

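Epididymal fat of male db/db mice was profiled by RNA-seq. The authors trimmed reads with Cutadapt, aligned them with STAR to mm10 (GRCm38) and counted them per Ensembl gene with featureCounts, per the labels and the study's methods. The versions and the strand setting are not given in the sources used here. The deposited counts were raw read counts per gene with the exon length of each gene, and 55394 of 55573 genes were matched to a symbol, 179 keeping their identifier.

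From these counts, edgeR 4.0.16 (R 4.3.3) filtered low genes by group (filterByExpr), which left 20822 genes and 8 of 9 adipokine genes, and scaled libraries by TMM (factors 0.847 to 1.10). A quasi-likelihood model was fitted to all 16 libraries with 1 mean per group, and calls required p below 0.01 after Benjamini-Hochberg adjustment over all genes tested. The SE of a log2 fold change is its size over the square root of F, and CPM values are TMM-scaled. With totals of 45376227 to 67539937 counts, counting error is small beside the common biological coefficient of variation of 0.203 for genes with many reads. It is not small for low genes such as *Serpina12*. In the eGFP libraries of week 7 *Rbp4* had 924 to 1031 counts and varied by 1.1%, which is not above its counting error. Alternatives were DESeq2 1.42.0, other scalings and filters, the 8 libraries compared alone, the replicate number as a block and leaving out each library. The labels do not say whether the numbers pair libraries, and the main fit used no pairing. Deviations from the group means of same-numbered libraries correlated at -0.200 to 0.142 over 24 pairs, which cannot exclude a pairing.

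The text names all 9 members, up to 4 genes with the smallest adjusted p per list and week, the genes most like each member, and *Lrg1*. *Klf15*, the adiponectin receptors, *Lepr*, *Grn*, *C1qtnf7* and *Serpina12* were named after their values were seen. Members and lists were chosen with earlier results of these data known. Promoter sequences are from RefSeq (GRCm38.p6), which had an entry for all 9 members. Protein sequences were not used here.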

Additional observations from a re-analysis of the deposited data

Results flagged for a closer look

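In *Metrnl*, LRG1 replicate 3 of week 7 stood apart from the other 3 libraries of its group at 17.01 CPM, against 21.9 to 22.5 CPM. Its distance to the nearest library was 0.878 of the range of the group, above Dixon's critical value for 4 libraries. Of 32 groups examined this was the only one, and chance gives about 1 in 20. The *Metrnl* difference of week 7 without that library was -1.20 on the log2 scale (adjusted p = 0.00130).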

How the results depend on the processing

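Calls at week 7 and week 10 (3 and 2 of 8 members) became 6 and 0 when only the 8 libraries compared were fitted, and 1 in each week with libraries scaled by their totals alone. Over all genes 29% and 0.0627% were called in the first of these settings and 19.1% and 6.99% in the second, against 18% and 8.9% in the main fit. DESeq2 and an adjusted p below 0.05 each gave 4 and 3, adding *Adipoq* at week 7 and *Nrg4* at week 10. The share over all genes rose too, to 25.1% and 17.1% by DESeq2 and to 31.5% and 22.9% at an adjusted p below 0.05. Scaled to mature adipocyte genes, week 7 had 1 call (*Metrnl*) and week 10 had 3 (*Lep*, *Metrnl* and *Nampt*), where 2834 genes were lower and 104 higher, and 0 when eGFP replicates 1 and 3 were left out as well. Leaving out 1 library at a time gave 1 to 3 calls at week 7, 0 to 3 at week 10, 0 for the difference between weeks and in the LRG1 group over time, and 0 to 1 in the eGFP group over time. Without eGFP replicates 1 and 3 of week 10 the calls were 1 at week 10, 1 for the difference between weeks and 4 over time in the eGFP group, where an adjusted p below 0.05 and DESeq2 each gave 1. Over all genes, leaving out that pair gave 0.736%, 2.13% and 10.1% called, in the same order. Those 2 libraries were chosen by adipocyte genes, whose level many members follow, so calls gained without them (*Adipoq* between weeks, and *Adipoq*, *Cfd*, *Rbp4* and *Metrnl* over time) are set by that choice and support nothing. On the adipocyte scale without them the difference between weeks had 1 call (*Metrnl*), where 22.7% of all genes were called.

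No called member changed direction. Among those not called, *Retn* turned to -0.045 at week 7, -0.082 at week 10 and -0.24 over time in the eGFP group on the adipocyte scale, and over time to -0.048 with library totals. *Nampt* turned to 0.025 at week 7 with upper quartile scaling. The change of the *Nrg4* effect between weeks turned to 0.029 with library totals and 0.047 on the adipocyte scale, and its eGFP time difference to 0.000286 with only the libraries compared. Without eGFP replicates 1 and 3, *Adipoq* turned to -0.058 and *Retn* to -0.50 at week 10, *Lep* to -0.060 for the difference between weeks, and over time in the eGFP group *Lep* to 0.27 and *Nrg4* to 0.25. On the adipocyte scale without them *Retn* was -0.60 at week 10, and the changes between weeks of *Nampt* and *Nrg4* turned to 0.41 and 0.15. With 1 library left out, ranges that crossed 0 were -0.036 to 0.51 for *Adipoq*, -0.23 to 0.081 for *Nrg4* and -0.40 to 0.31 for *Retn* over time in the eGFP group, -0.42 to 0.35 for *Cfd* and -0.095 to 0.62 for *Retn* at week 10, -0.12 to 0.027 for *Nampt* at week 7, and -0.22 to 0.091 for *Nrg4* and -0.69 to 0.032 for *Retn* for the difference between weeks. The cause was not tested. The epididymis list had no gene left under the filter of 1 CPM in 4 libraries and gave no median there.

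The replicate number as a block changed no call among the members. It gave 3 calls at week 7 and 2 at week 10, and turned *Retn* over time in the eGFP group to -0.15.

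Over all genes, those higher and lower at week 10 (762 and 1092) became 1587 and 1978 by DESeq2, 532 and 642 with the block, 2 and 10 when only the 8 libraries compared were fitted, and 87 and 74 without eGFP replicates 1 and 3. Those at week 7 (1534 and 2221) became 2581 and 3146 when only the 8 libraries compared were fitted.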

Other observations

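Among 33 further factors that fat tissue secretes, 32 were tested, and with LRG1 at week 7 5 rose and 2 fell, near the 18% called over all genes, with a median log2 fold change of 0.37. *Hp*, the haemoglobin-binding protein haptoglobin, had means of 1662 CPM with eGFP and 2886 CPM with LRG1 (0.80, SE 0.18, adjusted p = 0.00329). *C1qtnf9*, a relative of adiponectin, had 14.7 and 36.9 CPM (1.33, SE 0.29, adjusted p = 0.00290), and its relative *C1qtnf7* had 9.72 and 14.6 CPM (0.59, SE 0.13). *Ccn5* (1.34, SE 0.23) and *Sod3*, the extracellular superoxide dismutase (0.81, SE 0.19), rose too. The cytokine gene *Tnf* fell from 4.61 to 1.59 CPM (-1.54, SE 0.24, adjusted p = 0.000232) and progranulin, *Grn*, from 419 to 243 CPM (-0.78, SE 0.18).

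At week 10, 4 of the 32 rose and 2 fell, with a median of 0.40, against 8.9% called over all genes. In that week 1 rose and none fell without eGFP replicates 1 and 3, with a median of 0.11. The share called over all genes was then 0.736%. *Hp* (1.15, SE 0.18, adjusted p = 0.00138), *Ccn5* (1.36, SE 0.23) and *Sod3* (0.87, SE 0.19) rose again, as did *Serpina12*, the low-expressed gene of vaspin, from 0.160 to 0.811 CPM (2.39, SE 0.52). *Tnf* (-1.23, SE 0.24) and *Grn* (-0.73, SE 0.18) fell again. Of 13 endothelial genes, 10 rose at week 7 and 1 at week 10, and none fell, with medians of 0.89 and 0.63. Over all genes 7.37% and 3.66% were called higher in the respective weeks. None of the 13 passed at week 10 without eGFP replicates 1 and 3, where 0.736% of all genes were called. *C1qtnf5* was at 0 in all 16 libraries.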
